A study of Mus musculus with 8 samples.

Results

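The AP-1 and immediate early factors are transcription factors of the FOS, JUN, ATF, BATF and EGR families. They were taken from the probe table by gene symbol, as every probe named Fos, Fosb, Fosl2, Jun, Junb, Jund, Atf3, Egr1, Egr2 or Batf. Of these 10 listed genes, 8 had a row, with 1 probe each, among 25697 rows that carry 18138 gene symbols. All 8 passed the filter on dim probes, which kept 13868 rows detected on at least 2 arrays. No row carried the symbol Fosl2, which is not analysed here, and Jund is listed under its older symbol Jund1, whose values are given beside those of the 8. The cells were macrophages grown from the bone marrow of female mice aged 8 weeks, WT or iNOS-/-, all labelled C57bl/6J, where iNOS-/- mice lack the inducible nitric oxide synthase encoded by Nos2. All groups were cultured in GM-CSF (10 ng/ml) for 7 days, so no group was without it. The M1 groups had also received LPS (200 ng/ml) and IFN-γ (10 ng/ml) for 6 h, a pairing of a bacterial stimulus with a cytokine that gives inflammatory (M1) macrophages, and the unstimulated groups had not. The 4 groups are called WT unstimulated and WT M1, and iNOS-/- unstimulated and iNOS-/- M1. Each was measured on 2 bead arrays, and the comparisons ask how stimulation, genotype and both together changed each factor's mRNA. According to the methods the iNOS-/- mice are the line B6.129P2-Nos2tm1Lau/J, whose deletion is constitutive and so was carried by every cell throughout the culture.

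AP-1 is a family of dimers of basic leucine zipper proteins. A FOS protein pairs with a JUN protein, and ATF and BATF proteins can take the place of FOS, which changes the DNA sequence bound and whether transcription is raised or lowered. In macrophages, Toll-like receptor signals reach these genes through MAP kinases. The serum response factor with its ETS partners drives Fos and the EGR zinc finger genes from CArG boxes, and CREB and ATF proteins act at cAMP response elements. Transcripts of Fos, Fosb, Jun and Egr1 appear within minutes of a stimulus and are short-lived, so an array taken hours later records what is left after that first wave, whereas Junb, Atf3 and Batf are also known as more lasting products of cytokine and stress signalling.

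The control regions of 4 members whose mRNA moved in at least 1 comparison are shown because they carry letters known from this regulation. Each is the 250 bases before a RefSeq gene start on build GRCm38.p6, written 5′ to 3′ along the strand of the gene, with matches to the searched motifs in capitals. Fos lies on the plus strand at chr12:85473640-85473889, Jun on the minus strand at chr4:95052223-95052472, Atf3 on the minus strand at chr1:191183334-191183583, and Egr2, for 1 of its listed starts, on the plus strand at chr10:67537619-67537868.
Fos: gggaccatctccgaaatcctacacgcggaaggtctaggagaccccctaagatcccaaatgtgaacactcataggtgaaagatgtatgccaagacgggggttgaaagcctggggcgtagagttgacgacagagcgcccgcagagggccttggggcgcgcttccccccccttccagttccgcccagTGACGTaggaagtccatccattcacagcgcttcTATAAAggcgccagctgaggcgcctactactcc
Jun: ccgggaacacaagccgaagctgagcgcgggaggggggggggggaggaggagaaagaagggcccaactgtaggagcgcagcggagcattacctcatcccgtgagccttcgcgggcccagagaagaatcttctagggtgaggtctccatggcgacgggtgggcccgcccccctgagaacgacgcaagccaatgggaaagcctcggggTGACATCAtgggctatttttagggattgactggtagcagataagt
Atf3: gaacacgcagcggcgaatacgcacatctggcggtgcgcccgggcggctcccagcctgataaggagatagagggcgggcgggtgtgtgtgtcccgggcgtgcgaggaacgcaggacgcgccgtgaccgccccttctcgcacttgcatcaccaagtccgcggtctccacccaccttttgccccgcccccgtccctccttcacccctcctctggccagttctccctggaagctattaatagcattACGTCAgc
Egr2: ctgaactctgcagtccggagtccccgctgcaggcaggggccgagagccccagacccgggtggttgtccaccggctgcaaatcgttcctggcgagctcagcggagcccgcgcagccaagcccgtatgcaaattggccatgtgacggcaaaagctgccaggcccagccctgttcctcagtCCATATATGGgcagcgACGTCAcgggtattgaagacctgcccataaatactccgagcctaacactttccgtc
The capitals in Fos are TGACGT, the core of a cAMP response element, 66 to 61 bases before the start, and TATAAA, 33 to 28 bases before it. In Jun they are TGACATCA, a variant AP-1 element, 45 to 38 bases before the start. In Atf3 the core of the response element stands on the opposite strand, 8 to 3 bases before the start. In Egr2 they are a CArG box 72 to 63 bases before the start and the response element core on the opposite strand 56 to 51 bases before it. The other listed Egr2 starts differed. The region at chr10:67535249-67535498 held no match, and that at chr10:67537316-67537565 held another CArG box without TGACGT. Those at chr10:67537620-67537869 and chr10:67537680-67537929 held the same matches as the region shown. Among all 32851 promoter entries, which were searched over the same length, 6.47% held TGACGT on either strand, 2.93% held TGACATCA, 1.47% held a CArG box and 7.59% held TATAAA on the gene's own strand. The Fosb region held GCGNGGGCG, the element bound by EGR proteins (4.7% of entries), the Batf region held TGACGT, and the Junb region held none of the motifs. The searches for TGACGTCA, which contains TGACGT, for TGANTCA and for TTCNNNGAA gave no match in any listed member's region. A match or its absence describes these letters only. Egr1 was not used here for sequence.

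The authors deposited probe intensities that were not normalized between arrays, and the values below are these intensities after rank-invariant scaling to the mean array, an arbitrary unit that compares arrays for 1 probe and never 1 probe with another. Mean deposited intensity was 155 to 224 per array, and 46% to 49.3% of rows were detected at a detection p-value under 0.05. Nos2 was not detected on any of the 4 unstimulated arrays. It measured 177 and 132 on the WT M1 arrays and 180 and 204 on the iNOS-/- M1 arrays, at least 27.2-fold and at least 38.4-fold above the unstimulated bounds. It was not called different between the M1 groups (log2 difference 0.32, SE 0.32, limma adjusted p = 0.445). The files do not place the deletion relative to the probe, and every direction between genotypes rests on the labels. All 8 macrophage marker probes were detected on all 8 arrays, while probes for the lymphocyte gene Cd3e, the mast cell gene Ms4a2, the granulocyte gene Mpo and the dendritic cell gene Flt3 were detected on none. The other probes of the mast cell, granulocyte and dendritic cell lists were detected on 5 to 8 arrays each. Whether a group's arrays stem from separate mice is not given in the labels, and p-values therefore measure only the spread between arrays, which may be technical.

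Fos, which forms the classical AP-1 dimer with JUN, was highest in WT unstimulated cells and lowest in iNOS-/- M1 cells. Its scaled intensity was 1530 and 1610 on the WT unstimulated arrays, 788 and 812 on the WT M1 arrays, 755 and 809 on the iNOS-/- unstimulated arrays, and 113 and 96.2 on the iNOS-/- M1 arrays. The WT M1 and iNOS-/- unstimulated arrays overlapped, and the other groups lay apart. Fos fell 1.96-fold on M1 activation in WT cells (log2 fold change -0.97, SE 0.11, limma adjusted p = 0.00256) and 7.49-fold in iNOS-/- cells (-2.91, SE 0.11, adjusted p = 4.73e-05). It was 2.01-fold lower in iNOS-/- than in WT cells before stimulation (-1.01, SE 0.11, limma adjusted p = 0.00239) and 7.67-fold lower after M1 activation (-2.94, SE 0.11, adjusted p = 0.00012). In these bulk samples fewer cells of a type and less RNA per cell cannot be told apart, here or for any gene below.

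Fosb encodes a close paralogue of FOS with the same partners, and it was dim throughout. Its scaled intensity was 63 and 63.6 on the WT unstimulated arrays, 16.9 and 7.81 on the WT M1 arrays, 12.2 and 11.3 on the iNOS-/- unstimulated arrays, and 2.63 and 9.25 on the iNOS-/- M1 arrays, the first of which was not detected. The WT unstimulated arrays stood above all others, and the other groups overlapped or nearly met. Fosb was 5.51-fold lower in WT M1 than in WT unstimulated cells (log2 fold change -2.46, SE 0.66, limma adjusted p = 0.0378). It was 5.39-fold lower in iNOS-/- than in WT cells before stimulation (-2.43, SE 0.66, limma adjusted p = 0.0421). Each call was lost under 8 of 17 alternatives, among them no detection filter (limma adjusted p = 0.0933 and 0.104), a replicate block (0.0682 and 0.0747) and 6 of the fits that left out 1 array (up to 0.153 and 0.146). The differences of -1.25 (SE 0.66, limma adjusted p = 0.172) on activation of iNOS-/- cells and -1.22 (SE 0.66, adjusted p = 0.185) between the M1 groups were not called, and both were called without iNOS-/- M1 replicate 2 (-2.17, adjusted p = 0.0255, and -2.12, adjusted p = 0.0292).

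Jun, the main partner of FOS, followed the same order of groups. It measured 208 and 210 on the WT unstimulated arrays, 81.9 and 98.9 on the WT M1 arrays, 81.9 and 87.2 on the iNOS-/- unstimulated arrays, and 31.7 and 32.4 on the iNOS-/- M1 arrays. The 2 middle groups overlapped, as they did for Fos. On M1 activation Jun fell 2.32-fold in WT cells (log2 fold change -1.22, SE 0.11, limma adjusted p = 0.00146) and 2.63-fold in iNOS-/- cells (-1.40, SE 0.11, adjusted p = 0.000431). The genotype difference was -1.31 (SE 0.11, limma adjusted p = 0.00121) before stimulation and -1.49 (SE 0.11, adjusted p = 0.00051) after M1 activation. The 2 responses of Jun were not called different (log2 difference -0.18, SE 0.16, limma adjusted p = 0.419), and that difference was above 0 after quantile normalization (0.05), neqc (0.20) or an intercept in the scaling line (0.01).

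Junb, a JUN protein with weaker transactivation that can oppose JUN, moved the other way. It measured 888 and 951 on the WT unstimulated arrays, 1310 and 1410 on the WT M1 arrays, 636 and 635 on the iNOS-/- unstimulated arrays, and 1970 and 1990 on the iNOS-/- M1 arrays. No groups overlapped, and the iNOS-/- groups lay at both ends of the order. Junb rose 1.48-fold on M1 activation in WT cells (log2 fold change 0.57, SE 0.09, limma adjusted p = 0.00655) and 3.12-fold in iNOS-/- cells (1.64, SE 0.09, adjusted p = 0.000111). Compared with WT, iNOS-/- cells were 1.45-fold lower before stimulation (-0.53, SE 0.09, limma adjusted p = 0.00833) and 1.46-fold higher after M1 activation (0.54, SE 0.09, adjusted p = 0.00481). The second of these fell to 0.13 and was not called after quantile normalization (limma adjusted p = 0.234) or neqc (adjusted p = 0.26), and the first lost its call without iNOS-/- unstimulated replicate 2 (adjusted p = 0.0503).

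Jund1, the row for Jund, a JUN protein present in resting cells, was dim. It measured 45.6 and 38 on the WT unstimulated arrays, 100 and 91.5 on the WT M1 arrays, 56.2 and 45.8 on the iNOS-/- unstimulated arrays, and 81.1 and 88.5 on the iNOS-/- M1 arrays. Both M1 groups lay above both unstimulated groups. Jund1 rose on activation by 1.20 in WT cells (SE 0.15, limma adjusted p = 0.00373) and by 0.74 in iNOS-/- cells (SE 0.15, adjusted p = 0.011), both log2 fold changes. The second call was lost without iNOS-/- unstimulated replicate 2 (0.58, limma adjusted p = 0.0542) or iNOS-/- M1 replicate 2 (0.67, adjusted p = 0.0545). The genotype difference was 0.28 (SE 0.15, limma adjusted p = 0.219) before stimulation and -0.17 (SE 0.15, adjusted p = 0.39) after it, neither of which was called.

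**Figure D1:**
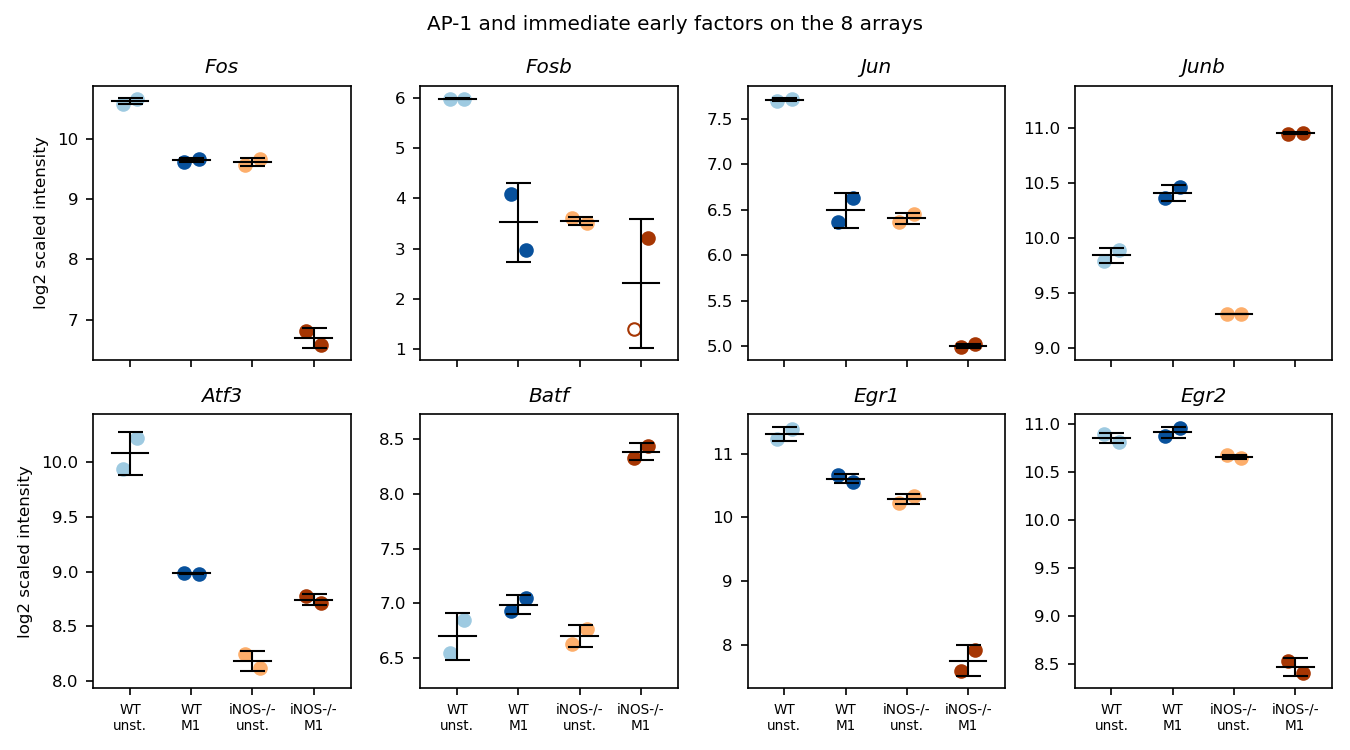
Each panel plots 1 factor, with the log2 scaled intensity of the 2 arrays of each group as points (open where not detected), and the mean with the SD as a line and bars. The vertical scales differ between panels. The iNOS-/- M1 arrays lie lowest for Fos, Jun, Egr1 and Egr2 and highest for Junb and Batf.

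Atf3, a stress-induced factor known to restrain Toll-like receptor responses, responded in opposite directions in the genotypes. It measured 979 and 1190 on the WT unstimulated arrays, 508 and 505 on the WT M1 arrays, 304 and 279 on the iNOS-/- unstimulated arrays, and 439 and 417 on the iNOS-/- M1 arrays. No groups overlapped, and the 2 M1 groups lay between the 2 unstimulated groups. Atf3 fell 2.14-fold on activation in WT cells (log2 fold change -1.09, SE 0.12, limma adjusted p = 0.00251) and rose 1.47-fold in iNOS-/- cells (0.56, SE 0.12, adjusted p = 0.0139). The rise was 0.36 under neqc. It lost its call after quantile normalization (0.38, limma adjusted p = 0.0502), without iNOS-/- unstimulated replicate 2 (adjusted p = 0.0772) and without iNOS-/- M1 replicate 1 (adjusted p = 0.0651). Before stimulation Atf3 was 3.72-fold lower in iNOS-/- than in WT cells (-1.89, SE 0.12, limma adjusted p = 0.000491), a wider gap than for the other members but Fosb. After M1 activation the difference was -0.24 (SE 0.12, limma adjusted p = 0.162) and was not called, although it was called under neqc (-0.37, adjusted p = 0.0177).

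Batf, which lacks a transactivation domain and binds DNA with JUN proteins and with IRF4 or IRF8, was high in 1 group only. It measured 93.6 and 116 on the WT unstimulated arrays, 122 and 133 on the WT M1 arrays, 98.7 and 109 on the iNOS-/- unstimulated arrays, and 321 and 347 on the iNOS-/- M1 arrays. The unstimulated groups overlapped, and the WT M1 arrays lay just above them. Batf rose 3.21-fold on activation in iNOS-/- cells (log2 fold change 1.68, SE 0.14, limma adjusted p = 0.000413) and was 2.62-fold higher in iNOS-/- M1 than in WT M1 cells (1.39, SE 0.14, adjusted p = 0.000988). In WT cells the difference on activation was 0.29 (SE 0.14, limma adjusted p = 0.159), and between the unstimulated groups it was 0.00 (SE 0.14, adjusted p = 0.994).

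Egr1, a zinc finger factor induced by growth factor and MAP kinase signals, was lowest in iNOS-/- M1 cells. It measured 2390 and 2690 on the WT unstimulated arrays, 1620 and 1510 on the WT M1 arrays, 1200 and 1290 on the iNOS-/- unstimulated arrays, and 191 and 242 on the iNOS-/- M1 arrays. No groups overlapped. Egr1 fell 5.79-fold on activation in iNOS-/- cells (log2 fold change -2.53, SE 0.15, limma adjusted p = 0.000146) and 1.63-fold in WT cells (-0.70, SE 0.15, adjusted p = 0.0175). The WT call was lost without WT unstimulated replicate 2 (limma adjusted p = 0.0781), WT M1 replicate 1 (0.0592) or WT M1 replicate 2 (0.0828). Against WT, iNOS-/- cells were 2.04-fold lower before stimulation (-1.03, SE 0.15, limma adjusted p = 0.00558) and 7.25-fold lower after it (-2.86, SE 0.15, adjusted p = 0.000213).

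Egr2, a related zinc finger factor that is also active in macrophage and lymphocyte differentiation, set the iNOS-/- M1 arrays apart from the other 6. It measured 1890 and 1790 on the WT unstimulated arrays, 1870 and 1970 on the WT M1 arrays, 1630 and 1590 on the iNOS-/- unstimulated arrays, and 369 and 339 on the iNOS-/- M1 arrays. The WT groups overlapped, and the iNOS-/- unstimulated arrays lay just under them. Egr2 fell 4.55-fold on activation in iNOS-/- cells (log2 fold change -2.19, SE 0.09, limma adjusted p = 5.71e-05) and was 5.44-fold lower in iNOS-/- M1 than in WT M1 cells (-2.44, SE 0.09, adjusted p = 0.00012). The WT response was 0.06 (SE 0.09, limma adjusted p = 0.643) and the genotype difference before stimulation was -0.20 (SE 0.09, adjusted p = 0.158), neither of which was called.

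Counted over the 8 members, M1 activation of WT cells raised 1 (Junb) and lowered 5 (Fos, Fosb, Jun, Atf3 and Egr1). Over all tested rows 20.8% were called higher and 14.3% lower in that comparison. In iNOS-/- cells activation raised 3 members (Junb, Atf3 and Batf) and lowered 4 (Fos, Jun, Egr1 and Egr2), where 25.2% of all rows were higher and 25.1% lower. Between the M1 groups 2 members were higher in iNOS-/- cells (Junb and Batf) and 4 lower (Fos, Jun, Egr1 and Egr2), beside 22.9% and 25.3% of all rows. Between the unstimulated groups no member was higher and 6 were lower in iNOS-/- cells, all but Egr2 and Batf, beside 16.7% and 15.4% of all rows. These comparisons share arrays, so their counts are not separate evidence. The share of higher rows among all called rows moved with the scaling, from 59.3% for WT activation to 47.4% after quantile normalization and 44.4% under neqc, and from 47.5% between the M1 groups to 58.4% when the scaling line was given an intercept.

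**Figure D2:**
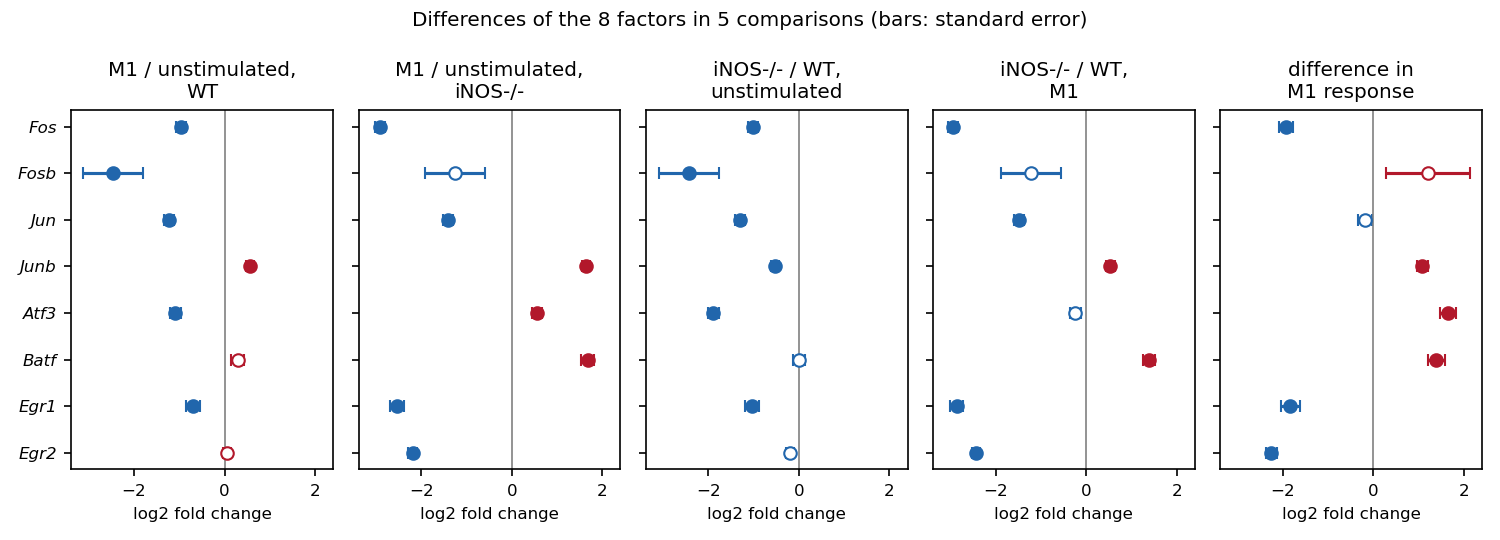
Points are the log2 fold changes of the 8 factors (rows) in the 5 comparisons (panels), with the standard error from limma as bars. Red marks higher and blue lower values, and filled points were called at an adjusted p under 0.05. Between the unstimulated groups the 6 filled points all lie below 0, and between the M1 groups Junb and Batf lie above it.

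The difference between the M1 responses of the genotypes was itself tested as the response in iNOS-/- cells minus that in WT cells. It was called for 6 of the 8 members, positive for 3 and negative for 3, where 19.4% of all rows were positive and 22.6% negative. Of the 8, Egr2 had the largest difference in size, -2.25 (SE 0.13, limma adjusted p = 0.000371). Fos (-1.93, SE 0.15, limma adjusted p = 0.000852) and Egr1 (-1.83, SE 0.21, adjusted p = 0.00214) fell further in iNOS-/- cells than in WT cells. Junb (1.08, SE 0.12, limma adjusted p = 0.00217) and Batf (1.39, SE 0.19, adjusted p = 0.00408) had larger increases there, although that of Junb came down to 0.58 after quantile normalization and 0.57 under neqc, both still called. For Atf3 the responses had opposite signs, and the difference was 1.65 (SE 0.17, limma adjusted p = 0.00179). For Fosb the difference of 1.21 (SE 0.93, limma adjusted p = 0.348) was not called, unlike under neqc (1.31, adjusted p = 0.000435), and for Jund1 it was -0.46 (SE 0.22, adjusted p = 0.146).

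Markers of other cell states moved with these groups. Summed over the 8 dendritic cell marker probes, scaled intensity was 945 to 968 in WT unstimulated, 13961 to 14856 in iNOS-/- unstimulated, 16663 to 17282 in WT M1 and 36967 to 38753 in iNOS-/- M1 cells. Of the 7 tested probes of that list, 6 were higher in iNOS-/- than in WT cells before stimulation and 4 after it. Over all rows 16.7% and 22.9% were higher. Most of the dendritic cell sum came from Ccl17 (up to 19646) and Il4i1 (up to 14460). Itgax was not called between genotypes, with log2 differences of 0.40 before stimulation and -0.44 after it. The 8 probes for genes of dividing cells summed to 510 to 579, 1914 to 1936, 1662 to 1797 and 674 to 682 in the same order of groups, and Ccnb2 and Bub1 were detected on no array. The 7 granulocyte probes summed to 1123 to 1142, 1680 to 1737, 1393 to 1500 and 3860 to 3984 in that order, mostly from S100a8 (920 to 2945). Before stimulation 5 of the 6 tested were higher in iNOS-/- cells and 1 was lower, Mmp8 (-1.33), beside 16.7% and 15.4% of all rows. The 3 mast cell probes summed to 9 to 10, 90 to 106, 33 to 34 and 122 to 123 in the same order of groups. Outside WT unstimulated cells this came mostly from Cpa3, a mast cell protease. Cpa3 was undetected in WT unstimulated cells and at least 16.1-fold higher in iNOS-/- unstimulated cells (limma adjusted p = 3.53e-05), and its log2 difference between the M1 groups was 2.34 (SE 0.16, adjusted p = 0.000375). The other tested mast cell probe, Fcer1a, did not follow Cpa3 and was not called between genotypes. Its log2 difference was -0.33 (SE 1.05, limma adjusted p = 0.843) before stimulation and -1.38 (SE 1.05, adjusted p = 0.33) between the M1 groups. The 8 macrophage probes summed to 29764 to 43261 over all arrays, a sum to which the lysozyme probes Lyz2 and Lyzs, not called between genotypes, gave most. Between the M1 groups 5 of these 8 were lower and 1 higher in iNOS-/- cells (median -0.62, beside -0.03 over all rows). Among the lower were the CSF-1 receptor gene Csf1r (-1.29), the Fc receptor gene Fcgr1 (-1.03) and Cd68 (-0.92). The higher one was Emr1 (0.41, SE 0.12, limma adjusted p = 0.0336). Before stimulation 1 was lower, Cd68 (-1.55), and 1 higher, Fcgr1 (0.54). Over all rows 25.3% were lower and 22.9% higher between the M1 groups, and 15.4% and 16.7% before stimulation. The M1 markers Nos2, Il12b, Il6, Tnf and Cxcl10 together measured 88 to 103 and 206 to 219 in the unstimulated WT and iNOS-/- cells, and 10874 to 11177 and 23219 to 25510 in the M1 cells. Their part in the differences of the AP-1 and immediate early factors was not tested.

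Other basic leucine zipper genes of the AP-1 circle were followed in a list of 12, of which 9 were tested. In WT cells 2 rose on activation, Batf2 (log2 fold change 4.60) and Jdp2 (1.24), and 3 fell, Atf2 (-0.55), Mafg (-0.38) and Atf4 (-0.37). In iNOS-/- cells 5 rose, among them Batf2 (4.84) and Jdp2 (1.09), and 1 fell. Over all rows 20.8% were called higher and 14.3% lower on WT activation, and 25.2% and 25.1% on iNOS-/- activation. Batf2 and Jdp2 encode relatives of BATF and FOS that also bind with JUN proteins. Between the M1 groups 4 were higher in iNOS-/- cells, including Jdp2 (1.36) and Batf2 (1.21), and 1 was lower. Before stimulation 2 were higher in iNOS-/- cells, Jdp2 (1.52) and Batf2 (0.97), and 3 were lower, Atf2 (-0.51), Mafg (-0.44) and Atf4 (-0.37). The shares of all rows called higher and lower were 22.9% and 25.3% between the M1 groups, and 16.7% and 15.4% before stimulation. The difference in response was called for 3, Atf2 (0.88), Atf4 (0.73) and Mafg (0.63), and for none in the negative direction. Over all rows it was positive for 19.4% and negative for 22.6%. The differences of Atf2 and Mafg were called under all 17 alternatives. That of Atf4 came down to as little as 0.19 and was not called after quantile normalization or under neqc. The count for WT activation came down from 5 to between 1 (without WT unstimulated replicate 2) and 3 when any 1 of the 4 WT arrays was left out, and that for iNOS-/- activation from 6 to 1 without iNOS-/- unstimulated replicate 1, to 2 without iNOS-/- M1 replicate 1 and to 3 without iNOS-/- M1 replicate 2. The list's median difference in response was 0.46, or 0.54 over the 8 genes detected in every group, beside -0.05 over all tested rows. Among the called genes Batf2 had the largest values, with log2 intensities of 4.22 and 3.91 on the WT unstimulated, 8.74 and 8.59 on the WT M1, 5.01 and 5.07 on the iNOS-/- unstimulated and 9.89 and 9.86 on the iNOS-/- M1 arrays.

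Among other immediate early genes, 16 of 24 listed were tested, and after activation 7 of them stood higher in iNOS-/- than in WT cells while Klf2, Klf4 and Sgk1 stood lower. In WT cells 4 rose, Nr4a3 (at least 7.18-fold, as it was not detected in WT unstimulated cells), Dusp2 (log2 fold change 2.27), Nr4a2 (1.22) and Gadd45b (0.72), and 4 fell, Sgk1 (-1.56), Plk2 (-0.80), Dusp1 (-0.55) and Klf6 (-0.39). The rise of Nr4a2 in WT cells was called under 5 of 18 alternatives, and the falls of Plk2 and Klf6 there under 9 and 10 of 18. In iNOS-/- cells 10 rose and 3 fell, led by Dusp2 (6.09), Nr4a2 (3.58), Klf4 (-3.56) and Gadd45b (3.49). The rises of Ier3 (0.74), Zfp36 (0.65) and Dusp1 (0.63) there lost their calls after quantile normalization and under neqc. That of Klf6 (0.92) lost its call after quantile normalization, and the fall of Sgk1 (-0.28) was called under 9 of 18 alternatives. Dusp2 encodes a phosphatase that switches off MAP kinases, Nr4a2 and Nr4a3 orphan nuclear receptors, Gadd45b a stress adaptor of MAP kinase signalling, and Klf2 and Klf4 zinc finger factors. Between the M1 groups 7 were higher in iNOS-/- cells and 3 lower, with Klf4 (-3.77), Nr4a2 (3.63), Dusp2 (2.97) and Klf2 (-2.85) the largest in size. Of these calls, that of Ier3 (0.64) was lost after quantile normalization and under neqc, and that of Dusp1 (0.70) after quantile normalization. That of Sgk1 (-0.31) was made under 9 of 18 alternatives. Before stimulation 3 were higher, Nr4a3 (at least 2.79-fold), Nr4a2 (log2 difference 1.26) and Plk3 (0.43), and 4 lower, including Sgk1 (-1.59) and Plk2 (-1.56). Over all rows 20.8% were called higher and 14.3% lower on WT activation, and 25.2% and 25.1% on iNOS-/- activation. These shares were 22.9% and 25.3% between the M1 groups, and 16.7% and 15.4% before stimulation. The list's median difference in response was 0.84, or 1.23 over the 12 genes detected in every group, beside -0.05 over all tested rows. The difference was called for 11 genes, 9 of them positive, where 19.4% of all rows were positive and 22.6% negative. The largest called one was that of Dusp2 (3.81, SE 0.28, limma adjusted p = 0.000694), whose log2 intensity was 4.60 and 4.70 on the WT unstimulated, 6.83 and 7.02 on the WT M1, 3.53 and 4.09 on the iNOS-/- unstimulated and 9.85 and 9.94 on the iNOS-/- M1 arrays. The largest called negative one was that of Klf4 (-3.45, SE 0.43, limma adjusted p = 0.00285), with 7.83 and 7.95, 7.77 and 7.80, 7.69 and 7.47, and 3.55 and 4.47 on the arrays in the same order. For Klf4 the iNOS-/- M1 arrays alone stood apart, as for Egr2.

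Of the kinases that lead to AP-1, all 13 listed were tested. In WT cells 2 rose, Mapk14, which encodes p38α (log2 fold change 0.41), and Map3k8 (0.35), and none fell, beside 20.8% of all rows higher and 14.3% lower. In iNOS-/- cells 4 rose, Map3k8 (1.83), Map2k1 (1.64), Map3k7 (0.91) and Map2k4 (0.34), and Mapk14 (-2.15) and Mapk3 (-0.61) fell, beside 25.2% and 25.1% of all rows. Between the M1 groups Map2k1 (1.68), Map3k7 (1.11), Map3k8 (0.96) and Map2k4 (0.35) were higher in iNOS-/- cells and Mapk14 (-2.08) and Mapk3, which encodes ERK1 (-0.94), were lower. Before stimulation Mapk14 (0.48) was higher and Mapk3 (-0.59) and Map3k8 (-0.52) were lower in iNOS-/- cells. Over all rows 22.9% were higher and 25.3% lower between the M1 groups, and 16.7% and 15.4% before stimulation. The difference in response was called for 5, of which only Mapk14 was negative (-2.56, SE 0.11, limma adjusted p = 0.00018). Over all rows 19.4% had a called positive difference and 22.6% a negative one. Mapk14 had log2 intensities of 8.96 and 8.97 on the WT unstimulated, 9.36 and 9.39 on the WT M1, 9.47 and 9.43 on the iNOS-/- unstimulated and 7.28 and 7.31 on the iNOS-/- M1 arrays. The count for the difference in response was 3 without WT unstimulated replicate 2 or any 1 of the 4 M1 arrays, and Mapk14 was called in each fit. The count for WT activation was 0 when only the 4 WT arrays were fitted and 6 under neqc.

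The last list held factors that act with AP-1 and EGR proteins, of which 8 of 9 were tested. Irf8 and Irf4 encode the partners of BATF. Irf8 rose in both genotypes (log2 fold change 1.71 in WT and 2.85 in iNOS-/- cells), and the increase was larger in iNOS-/- cells by 1.13 (SE 0.24, limma adjusted p = 0.0153). Irf4 rose in WT cells (1.64) and fell in iNOS-/- cells (-0.30, limma adjusted p = 0.0499), a difference of -1.94 (SE 0.14, adjusted p = 0.000603). The fall in iNOS-/- cells was called under 8 of 18 alternatives and under none that left out 1 array, while the difference was called under all. It measured 7.12 and 7.23 on the WT unstimulated, 8.73 and 8.89 on the WT M1, 8.46 and 8.43 on the iNOS-/- unstimulated and 8.17 and 8.12 on the iNOS-/- M1 arrays on the log2 scale. Creb1 rose in both genotypes (1.17 and 1.25), as did Nab1, which encodes a corepressor of EGR proteins (0.39 and 0.86). In all, 4 of the 8 rose and none fell in WT cells (20.8% and 14.3% over all rows), and 3 rose and 2 fell in iNOS-/- cells (25.2% and 25.1%). Between the M1 groups 3 were higher and 1 lower (22.9% and 25.3%), and before stimulation 2 were higher and none lower (16.7% and 15.4%). The difference in response was called for Irf8, Irf4 and Nab1 (0.48), beside 19.4% of all rows positive and 22.6% negative. That of Nab1 was called under 9 of 17 alternatives and that of Irf8 under 14 of 17. For Srf, the factor that binds CArG boxes, the response was -0.05 (SE 0.12, limma adjusted p = 0.772) in WT and -0.26 (SE 0.12, adjusted p = 0.129) in iNOS-/- cells, neither of which was called.

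**Figure D3:**
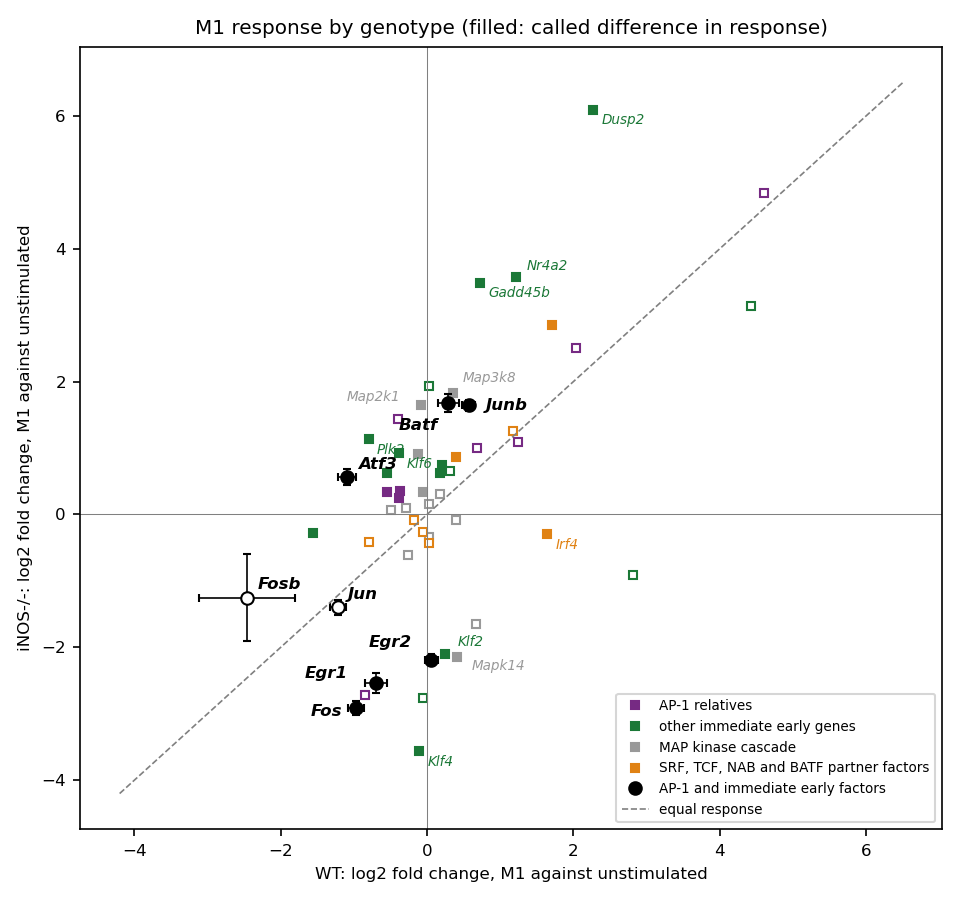
The log2 fold change on M1 activation in WT cells (horizontal axis) is plotted against that in iNOS-/- cells (vertical axis) for the 8 factors (circles, bars are standard errors) and the 4 gene lists (squares). Filled symbols had a called difference in response, and the dashed line marks equal responses. Fos, Egr1, Egr2 and Klf4 lie below the line, and Junb, Batf, Atf3 and Dusp2 above it.

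The probes most like 1 member of each family were named by Pearson's r of log2 intensity over the 8 arrays, among 8112 tested probes whose group means ranged over at least 1 log2 unit. The 8 arrays form 4 groups of 2, so that r mainly follows the 4 group means, and it is given as a description. Nearest to Fos were Snx24 (r = 0.9989), Prkacb (0.9987) and 1190002A17Rik (0.9985). Nearest to Junb were LOC100047934 (0.9981), Tapbp (0.9962) and Irf1 (0.9961). For Atf3 they were Cd33 (0.9885), Fstl1 (0.987) and Tmem38b (0.985), lower values than for the other 3. Those of Egr2 were Ppargc1b (0.9984), Clec4b1 (0.9981) and Rad50 (0.9968).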

How the data were processed

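The members and gene lists were chosen with earlier results of these data known. The authors deposited a mean bead intensity for every probe, without normalization across arrays, together with its detection p-value. The submitters' processing notes name GenomeStudio and limma 3.14.4, and the study's methods name background subtraction and rank-invariant normalization. The labels name the MouseRef-8 and the protocol the MouseWG-8 array. Between 25.2% and 27.2% of the deposited intensity values per array lay below 0, so no further background was subtracted.

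Arrays were brought to the scale of their mean by a robust line through the origin over rank-invariant probes (MASS 7.3.60.0.1). After a floor of 1 and log2 transformation, probes detected (p-value under 0.05) on 2 or more arrays entered a one-way model of the 4 groups on all 8 arrays in limma 3.58.1 (R 4.3.3, lmFit and eBayes). Adjusted p-values are limma's after Benjamini-Hochberg adjustment over 13868 probes, and a probe is called at an adjusted p under 0.05. A group with no detected array has only a bound, which is per array the lowest detected value or the probe's value, whichever is higher. The text names all members, Nos2 and, from 4 pathway lists, up to 4 called genes with the largest change per comparison and list, with others where a statement turns on them. The latter, such as Srf, were chosen after their values were seen. Some genes that this rule covers are left out. Each gene of the pathway and marker lists was represented only by its brightest tested probe, by mean log2 intensity over the arrays. Marker sums and marker detection took the brightest probe of a gene whether it was tested or not. Any other probes of these genes were not used for the lists. The steps were tested on simulated data. Alternatives were quantile normalization, neqc, a floor of 16, other detection filters, the 4 arrays of a comparison alone, a replicate block, an intensity trend, each array left out, and, added with results known, an intercept in the scaling line. Same-numbered arrays did not deviate together (correlation -0.04 to 0.02), so the numbers were not taken as pairs. Promoters came from a RefSeq table of build GRCm38.p6, which held 9 of the 10 listed genes as used here.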

Additional observations from a re-analysis of the deposited data

Results flagged for a closer look

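For 6 factors the M1 response differed between the genotypes in the test of that difference, given as the log2 response in iNOS-/- cells minus that in WT cells. The values were -1.93 for Fos, -1.83 for Egr1 and -2.25 for Egr2, and 1.08 for Junb, 1.39 for Batf and 1.65 for Atf3. Each kept its direction and its call under all alternatives that were run. Such calls were common among all tested rows, with 19.4% positive and 22.6% negative. Groups of 2 arrays are too small for a search for single outlying arrays.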

How the results depend on the processing

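The member counts ranged, with 1 array left out, from 4 to 6 for WT activation, 6 to 8 for iNOS-/- activation, 6 to 7 between the M1 groups, 4 to 6 between the unstimulated groups and 6 to 6 for the difference in response. With the replicate block they were 5, 7, 6, 5 and 6, and the block ended no member call but those of Fosb. Single values changed sign for Fosb between the M1 groups with an intercept (0.00), for the difference in response of Jun (0.05 after quantile normalization, 0.20 under neqc, 0.01 with an intercept), and for Batf between the unstimulated groups (-0.18 to 0.12 with 1 array left out). For Nos2 this held between the unstimulated groups with an intercept (-0.15) and for its difference in response under neqc (0.22), a floor of 16 (0.32) and an intercept (0.45). The causes were not tested. The difference in response of Fosb was also called with a floor of 16 (1.95) and with an intercept (2.28). An intensity trend called Egr2 between the unstimulated groups (limma adjusted p = 0.0449) and Atf3 between the M1 groups (adjusted p = 0.0491). With an intercept the median of all probes was 0.24 between the M1 groups (otherwise -0.03) and 0.33 for the difference in response (otherwise -0.05), with 59.7% of the called probes above 0 there in place of 46.1%.

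Of the 4869 probes called for WT activation and 4459 between the unstimulated groups, over 1.5 times fewer were called without WT unstimulated replicate 1 (3159) or 2 (3140) or WT M1 replicate 2 (3155) in the first, and without any 1 of the 4 unstimulated arrays (2721 to 2865) in the second. Of the gene lists, AP-1 relatives went from 5 to 3 called genes for WT activation and to 2 between the M1 groups on 4 arrays, from 6 to 3 for iNOS-/- activation after quantile normalization, and from 3 to 5 for the difference in response under neqc or with an intercept. With 1 array left out that list ranged from 1 to 6 in both activations, 2 to 6 between the M1 groups and 2 to 5 before stimulation. Other immediate early genes ranged from 3 to 7 for WT activation (8 on all arrays) and 2 to 7 before stimulation, and before stimulation also from 4 (4 arrays) to 11 (intensity trend). For iNOS-/- activation that list ranged from 9 to 14 over all settings (13 in the main fit). The MAP kinase list ranged from 0 to 6 for WT activation over all settings, from 1 to 5 before stimulation and from 3 to 7 for the difference in response. The partner list went from 5 to 3 for iNOS-/- activation on 4 arrays, with the replicate block or with 1 array left out, and ranged from 1 to 4 before stimulation and from 1 to 5 for the difference in response. Of 113 single calls in the 4 lists, 60 were made under every alternative. A block for the BeadChip was not run, since the headers name none.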
